A study of Homo sapiens with 12 samples.

Results

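The genes described here are 39 members of the unfolded protein and amino acid responses, chosen by symbol, and their transcripts were measured on 12 Illumina bead arrays of BJ, a human fibroblast cell line. They comprise 18 genes of the chaperone and ER-associated degradation (ERAD) arm, which the factors ATF6 and XBP1 drive, 4 genes for the stress sensors and XBP1 itself, and 17 genes of the ATF4 arm. Of the 47231 probes on the array, 51 carried the symbol of a member. Of these, 46 counted as detected (a detection p below 0.05 on 3 or more of the 12 arrays) and covered 36 genes. In the chaperone and ERAD arm 16 genes were measured, among the sensors and XBP1 there were 3, and in the ATF4 arm all 17. HERPUD1 had no probe in the annotation used, and the probes of PDIA3 and ERN1 were detected on 0 arrays. The whole series had 23313 such probes, for 12640 genes.

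The study asked how phosphorylation of threonine 350 of EZH2, the histone methyltransferase of Polycomb repressive complex 2, bears on gene repression. There were 4 groups of 3 arrays, all on 1 chip. By chip section, si-Control was at A, C and F, si-EZH2 at E, G and H, and T350A re-expression at B, D and L. EZH2 re-expression held the neighbouring sections I, J and K, so group and section cannot be fully told apart. All cells grew in DMEM with 10% FBS, carried a lentivirus for 72 h and then received an siRNA for 60 h. The si-Control group had a control virus and a control siRNA, and the si-EZH2 group the same virus and an siRNA against EZH2. The EZH2 re-expression group had that siRNA and a virus with an EZH2 it does not target, and the T350A re-expression group the same with the T350A mutant, in which alanine replaces the threonine. The siRNA against EZH2 was therefore common to all groups except si-Control, and no group combined the control siRNA with an EZH2 virus. The labels name neither the promoter of the viruses nor a cell clone, and whether each replicate was its own culture is not stated. The p-values therefore reflect the spread among these arrays, which may be technical.

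When proteins fail to fold in the endoplasmic reticulum, 3 membrane sensors respond. ERN1 (IRE1) splices XBP1 mRNA, ATF6 is cut to release a transcription factor, and EIF2AK3 (PERK) phosphorylates the translation factor eIF2. XBP1 and ATF6 raise chaperones and ERAD genes, whereas phosphorylated eIF2 favours translation of ATF4, which raises genes for amino acid uptake and synthesis and for stress signalling. Another eIF2 kinase, EIF2AK4 (GCN2), feeds into ATF4 when amino acids run short. Fibroblasts secrete collagen and other matrix proteins through the same compartment. The arrays read mRNA levels, not splicing, cleavage or phosphorylation.

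Each array detected between 20658 and 21910 probes, with a median raw intensity between 59.9 and 73.8. All 8 fibroblast markers, among them COL1A1, VIM and PDGFRB, were detected on all 12 arrays and none was called in the 4-group test described below. Of the epithelial list, 4 of 6 genes with a probe were detected on all 12 arrays and CDH1 on 0. The 5 tested (EPCAM, KRT8, KRT18, KRT19 and CLDN4) included 2 that were called, and their median difference was -0.19 for si-EZH2 minus si-Control and 0.20 for EZH2 re-expression minus si-Control, the latter with 3 above 0 and 2 below. In T350A minus EZH2 re-expression all 5 lay below 0, with a median of -0.27. Among the 8 fibroblast markers, 4 had an unadjusted p under 0.05 in limma when EZH2 re-expression was set against si-EZH2 (20.6% of all genes did), and the median of the 8 was -0.20. The part of these markers in the results below was not tested. Among endothelial and leukocyte markers, CDH5, ESAM, VWF, CD3E, CD53, LYZ and PTPRC were detected on 0 arrays. TEK and CD68 of these lists were detected on all 12, with si-Control means of 6.68 and 11.09. Probe ILMN_1708105 of EZH2 fell from si-Control to si-EZH2 by 1.09 ± 0.13 (SE) in log2 units (limma adjusted p = 0.000169), and probe ILMN_1652913 was higher than si-EZH2 by 3.16 with EZH2 re-expression and by 2.60 with T350A. ILMN_1708105 was not restored there, at 0.15 and 0.22 from si-EZH2 (limma adjusted p = 0.609 and 0.487) and -0.95 and -0.87 from si-Control. On ILMN_1652913 si-EZH2 minus si-Control was -0.94. Between the re-expression groups, T350A minus EZH2 was -1.29 on ILMN_2364529 (adjusted p = 0.000254), while on ILMN_1652913 the difference of -0.56 did not pass (adjusted p = 0.211). In comparisons of these groups the amount of transcript and the mutation cannot be told apart.

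Levels below are log2 intensities after background correction and quantile normalization, and a difference of 1 is a 2-fold change. Differences carry the SE from limma, which was fitted to all 12 arrays and every tested probe, and a gene was called at a Benjamini-Hochberg adjusted p under 0.05 over all tested probes. A gene with several probes was counted by the brightest.

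As a set the members differed between groups about as little as all genes did, and 4 genes carried the calls. DNAJB9, SDF2L1, ATF3 and SLC7A5 were each higher in at least 1 of the groups with the siRNA against EZH2 than in si-Control, and no member was called lower in any comparison by its counted probe. Across the 4 groups, limma's F-test called 3 of the 36 members (SLC7A5, adjusted p = 0.00183, DNAJB9, adjusted p = 0.0124, and SDF2L1, adjusted p = 0.0326), against a background of 8.42% of all genes. That count was 1 without si-Control replicate 2, a fit for which the share of all genes was not computed. The highest and lowest group means of a member lay between 0.075 and 0.74 apart, with a median of 0.23, beside 0.26 for all genes. That distance was under 1.5-fold in 34 of the 36 members and in 95.3% of all genes. The median SD between replicates was 0.11 for the members and 0.14 for all genes.

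Against si-Control, 3 of 36 members were higher in si-EZH2 and 0 lower, where 1.95% of all genes were called higher and 1.5% lower. With EZH2 re-expression 2 were higher and 0 lower, against 4.32% and 4.48% of all genes. With T350A re-expression 2 were higher and 0 lower, against 2.11% and 2.1%. Among the siRNA groups themselves, 0 members were called for EZH2 re-expression minus si-EZH2, where 3.67% of all genes were called in either direction. Likewise 0 were called for T350A re-expression minus si-EZH2, with a background of 0.111%, and 0 for T350A minus EZH2 re-expression, with a background of 0%. At an unadjusted p under 0.05 in limma these 3 counts were 9, 3 and 1, or 25%, 8.33% and 2.78% of the members, against 20.6%, 14.8% and 8.76% of all genes. Against si-Control the counts at that threshold were 9 for si-EZH2, 10 for EZH2 re-expression and 6 for T350A. These are 25%, 27.8% and 16.7% of the members, beside 17.7%, 25.5% and 21.3% of all genes. The 3 comparisons with si-Control share its arrays, so they are given side by side and not as separate evidence.

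**Figure D1:**
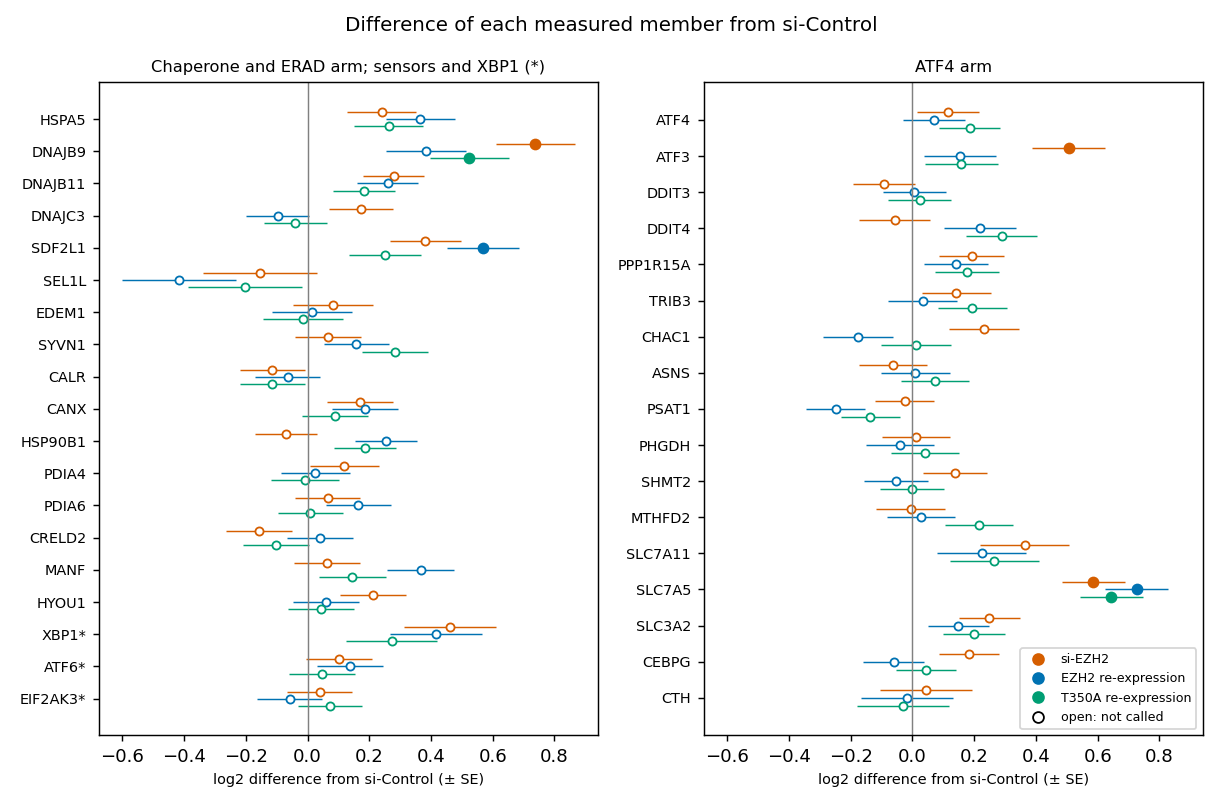
Log2 difference from si-Control (x axis, bars ± SE) of the 36 measured members, by gene (y axis), for the 3 groups given the siRNA against EZH2, with filled points for genes called by limma and open points for the rest. DNAJB9, SDF2L1, ATF3 and SLC7A5 hold the filled points, all of them to the right of 0.

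The chaperone and ERAD arm was led by DNAJB9, an ER-resident J protein (ERdj4) that works with HSPA5 and is a target of spliced XBP1. Its level was 8.65, 8.43 and 8.57 in the si-Control group, then 9.42, 9.07 and 9.38 in the si-EZH2 group, 8.79, 9.20 and 8.82 for EZH2 re-expression and 9.09, 9.02 and 9.13 for T350A. All 9 arrays with the siRNA against EZH2 lay above all 3 of si-Control. The gene rose by 0.74 ± 0.13 in si-EZH2 (1.67-fold, adjusted p = 0.00446) and by 0.52 ± 0.13 with T350A re-expression (1.44-fold, adjusted p = 0.0355), both against si-Control. With EZH2 re-expression it was 0.38 ± 0.13 above si-Control, which did not pass (adjusted p = 0.0842), and its difference from si-EZH2 was -0.35 (adjusted p = 0.151). EZH2 and T350A re-expression overlapped, with a difference of 0.14 (95% interval -0.13 to 0.41). The call in si-EZH2 held when each array was left out in turn. The call with T350A was lost without any 1 of the 3 si-Control or the 3 T350A arrays, with adjusted p up to 0.103. It was also lost under median scaling, with no filter, with the replicate block and with chip section as a covariate (adjusted p = 0.0705, 0.0577, 0.0552 and 0.0731).

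SDF2L1, a lumenal partner of ER chaperone complexes, was at 9.47, 9.68 and 9.68 in the si-Control group, then 9.85, 10.18 and 9.95 in the si-EZH2 group, 10.22, 10.16 and 10.15 for EZH2 re-expression and 9.87, 10.03 and 9.69 for T350A. Here the EZH2 re-expression arrays were the tightest and lay above all of si-Control and T350A. It rose by 0.57 ± 0.12 with EZH2 re-expression against si-Control (1.48-fold, adjusted p = 0.00932). The same difference was 0.38 for si-EZH2 (adjusted p = 0.1001) and 0.25 for T350A (adjusted p = 0.255). T350A minus EZH2 re-expression was -0.32 (95% interval -0.56 to -0.069, unadjusted p = 0.0157, adjusted p = 0.467 in limma), the only member with an unadjusted p under 0.05 in that comparison. With chip section as a covariate the call against si-Control was lost (adjusted p = 0.0787).

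HSPA5 (BiP), the main ER chaperone and the protein that holds the sensors inactive, was at 9.94, 10.21 and 10.14 in si-Control and at 10.47, 10.24 and 10.30 in si-EZH2. It was at 10.49, 10.56 and 10.33 with EZH2 and at 10.41, 10.44 and 10.24 with T350A. All siRNA arrays lay above si-Control, though by margins close to the spread. The differences from si-Control were 0.24 (95% interval 0.0033 to 0.48, adjusted p = 0.306), 0.37 (0.13 to 0.60, adjusted p = 0.0599) and 0.26 (0.026 to 0.50, adjusted p = 0.211), and none was called.

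**Figure D2:**
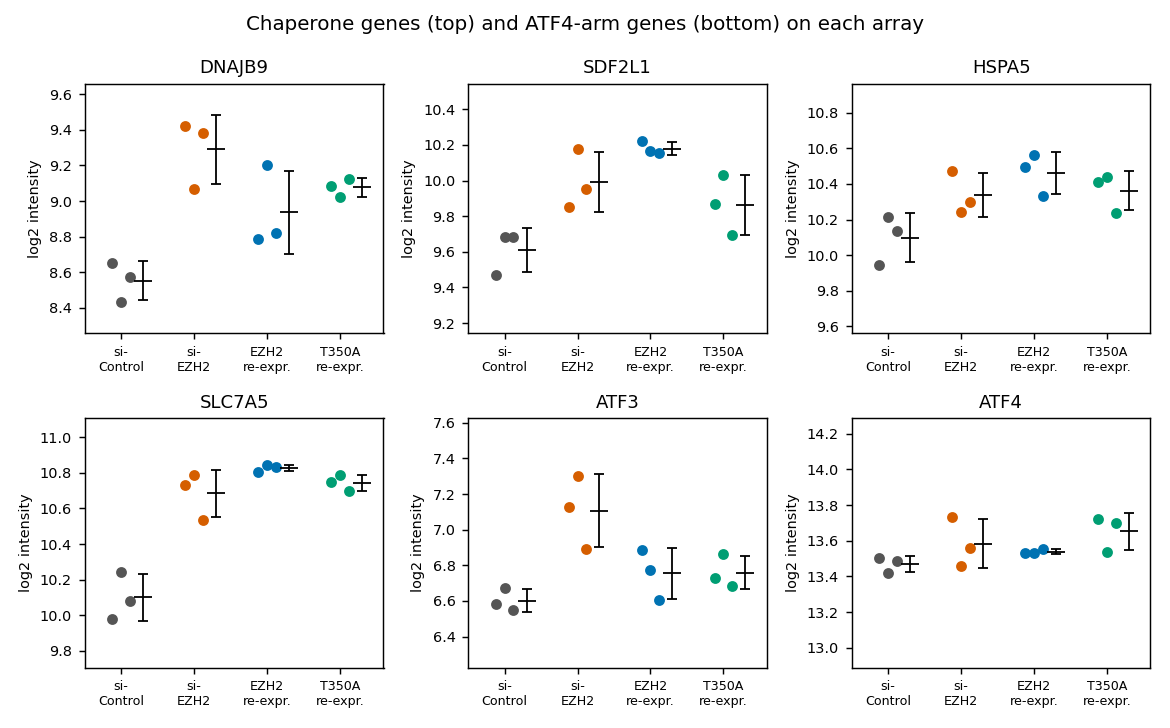
Log2 intensity (y axis) on each array of DNAJB9, SDF2L1 and HSPA5 from the chaperone arm and SLC7A5, ATF3 and ATF4 from the ATF4 arm, by group (x axis), with 1 point per array and the mean ± SD of 3 arrays beside it in black. Every panel spans the same range. SLC7A5 and DNAJB9 step up from si-Control in all groups with the siRNA against EZH2, while ATF3 is highest in si-EZH2.

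Promoter windows from RefSeq (GRCh38.p14, 250 bases before to 50 after the start) were searched on both strands for elements known from these responses, and 36 of the 39 members had a window. The ER stress element ERSE is bound by ATF6 with the factor NF-Y and was searched as CCAAT and CCACG 9 bases apart. It was found in 6 of 17 genes of the chaperone and ERAD arm (CALR, CANX, CRELD2, HSP90B1, HSPA5 and PDIA6), in XBP1, and in 0 of 15 of the ATF4 arm, against 0.0916% of 27305 genes. The related ERSE-II, ATTGG and CCACG 1 base apart, was in HERPUD1, HYOU1 and SDF2L1 and in 0.0696% of all genes. The XBP1 element UPRE, by its core TGACGTGG, was in HYOU1 alone among members, where it overlaps an ERSE-II in CCACG, and in 0.927% of all genes. A match is a description of the letters and no evidence of binding. The windows of HSPA5 (chr9:125241294-125241593, minus strand), SDF2L1 (chr22:21642052-21642351, plus strand) and DNAJB9 (chr7:108569624-108569923, plus strand) are printed as those of the main ER chaperone and of the called genes of the arm. Capitals mark the ERSE in HSPA5, which begins 66 bases before the start, and the ERSE-II in SDF2L1, on the opposite strand 188 bases before it, and DNAJB9 had no match.
HSPA5: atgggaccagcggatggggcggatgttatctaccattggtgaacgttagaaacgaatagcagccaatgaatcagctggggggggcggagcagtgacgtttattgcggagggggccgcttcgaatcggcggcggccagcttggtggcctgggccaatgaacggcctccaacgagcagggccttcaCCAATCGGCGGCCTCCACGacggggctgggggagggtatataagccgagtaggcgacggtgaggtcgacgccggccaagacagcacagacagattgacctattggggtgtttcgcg
SDF2L1: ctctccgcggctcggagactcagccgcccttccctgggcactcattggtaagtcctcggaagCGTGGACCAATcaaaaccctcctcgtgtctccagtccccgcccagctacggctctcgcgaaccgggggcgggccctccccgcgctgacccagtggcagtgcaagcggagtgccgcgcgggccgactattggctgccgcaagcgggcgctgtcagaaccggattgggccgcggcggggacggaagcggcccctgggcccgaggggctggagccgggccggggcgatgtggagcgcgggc
DNAJB9: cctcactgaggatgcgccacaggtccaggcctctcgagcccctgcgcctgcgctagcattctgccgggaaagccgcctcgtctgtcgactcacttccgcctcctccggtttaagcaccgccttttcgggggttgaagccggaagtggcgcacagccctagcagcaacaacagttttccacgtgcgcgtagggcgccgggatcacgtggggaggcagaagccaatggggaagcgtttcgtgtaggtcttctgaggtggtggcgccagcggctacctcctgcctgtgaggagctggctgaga
Of the chaperone genes called in any comparison, SDF2L1 held an ERSE-II and DNAJB9 none of the elements searched. The F-test called 0 of the 6 chaperone genes with an ERSE, a count too small to set against the 8.42% of all genes.

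The other chaperones showed smaller differences and none was called. HSP90B1 (GRP94), the ER member of the HSP90 family, was at 13.0025, 13.13 and 13.17 in the si-Control group, then 12.98, 13.13 and 12.99 in the si-EZH2 group, 13.37, 13.47 and 13.22 for EZH2 re-expression and 13.33, 13.29 and 13.24 for T350A. Both re-expression groups lay above both groups with the control virus, without overlap. HSP90B1 differed by 0.32 ± 0.10 for EZH2 re-expression minus si-EZH2 (adjusted p = 0.0982) and by 0.26 for T350A minus si-EZH2 (adjusted p = 0.274). MANF, a small ER protein that is secreted under ER stress, was at 11.39, 11.56 and 11.47 in the si-Control group, then 11.53, 11.57 and 11.50 in the si-EZH2 group, 11.87, 11.75 and 11.90 for EZH2 re-expression and 11.64, 11.79 and 11.42 for T350A. With EZH2 re-expression it stood 0.37 above si-Control (adjusted p = 0.0516) and 0.30 above si-EZH2 (adjusted p = 0.142), and only the T350A group reached its range.

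DNAJB11 (ERdj3), another J protein partner of HSPA5, was 0.28 above si-Control in si-EZH2 and 0.26 above it with EZH2 re-expression (adjusted p = 0.161 and 0.129). The lectin chaperones CALR and CANX, which hold glycoproteins during folding, differed from si-Control by -0.11 and 0.17 in si-EZH2. The disulfide isomerases PDIA4 and PDIA6 differed by 0.12 and 0.065 there, and CRELD2, an ER stress-induced secretory protein, by -0.16. DNAJC3 (p58IPK), a cochaperone, differed by -0.27 for EZH2 re-expression minus si-EZH2 without overlap (adjusted p = 0.170). In the ERAD machinery, the ligase SYVN1 (HRD1) was 0.28 higher with T350A than in si-Control (adjusted p = 0.160), whereas its dimmer probe ILMN_2339691 gave -0.29 (adjusted p = 0.319). EDEM1, which selects misfolded glycoproteins, differed by at most 0.098 in any comparison. SEL1L, the partner of SYVN1, ranged from 4.95 to 5.86 over the 12 arrays, and its difference of -0.42 ± 0.19 between EZH2 re-expression and si-Control did not pass (adjusted p = 0.194). HYOU1 (GRP170), a nucleotide exchange factor for HSPA5, read 0.060 between EZH2 re-expression and si-Control on its counted probe and 0.40 on ILMN_2141790 (adjusted p = 0.791 and 0.0805).

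Of the sensors and XBP1, 0 of 3 measured genes were called in any comparison. XBP1 alone had an unadjusted p under 0.05 in limma, in si-EZH2 and in EZH2 re-expression against si-Control, where 17.7% and 25.5% of all genes did. XBP1, the factor whose mRNA ERN1 splices, was at 11.64, 12.11 and 12.41 in the si-Control group, then 12.47, 12.55 and 12.52 in the si-EZH2 group, 12.40, 12.54 and 12.47 for EZH2 re-expression and 12.20, 12.38 and 12.39 for T350A. The si-Control arrays spread widely, its lowest array far below the rest, and the other groups were tight. The difference of 0.46 ± 0.15 in si-EZH2 did not pass (1.38-fold, adjusted p = 0.120), nor did the 0.42 with EZH2 re-expression (adjusted p = 0.103). In si-EZH2 probe ILMN_2365465 gave 0.28 (adjusted p = 0.339). ATF6 was at 9.52, 9.68 and 9.41 in the si-Control group, then 9.80, 9.52 and 9.60 in the si-EZH2 group, 9.70, 9.63 and 9.70 for EZH2 re-expression and 9.54, 9.54 and 9.68 for T350A, and the groups overlapped. It differed by at most 0.14 in any comparison and EIF2AK3 by at most 0.13. Between si-EZH2 and si-Control ATF6 and EIF2AK3 differed by 0.10 (95% interval -0.12 to 0.33) and by 0.039 (-0.18 to 0.26).

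The ATF4 arm was led by SLC7A5, the light chain of the LAT1 transporter that imports leucine and other large neutral amino acids. It was at 9.98, 10.24 and 10.08 in the si-Control group, then 10.73, 10.79 and 10.54 in the si-EZH2 group, 10.81, 10.84 and 10.83 for EZH2 re-expression and 10.75, 10.79 and 10.70 for T350A. The lowest of the 9 siRNA arrays, at 10.54, stood above the highest si-Control array, at 10.24. SLC7A5 rose by 0.59 ± 0.10 in si-EZH2 (1.5-fold, adjusted p = 0.00472), by 0.73 ± 0.10 with EZH2 re-expression (1.65-fold, adjusted p = 0.000778) and by 0.64 ± 0.10 with T350A re-expression (1.56-fold, adjusted p = 0.00394). It was the only member called against si-Control in all 3 groups. EZH2 re-expression minus si-EZH2 was 0.14 (95% interval -0.078 to 0.36) and T350A minus si-EZH2 was 0.058 (-0.16 to 0.28), and both estimates lay on the side away from si-Control. All 3 calls held in each of the alternatives run and with each array left out.

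ATF3, a stress-induced transcription factor and an ATF4 target, was high in 1 group. Only probe ILMN_2374865 reads this gene here, as its probes ILMN_1661109 and ILMN_1791346 were detected on 0 arrays. Its level was 6.58, 6.67 and 6.55 in the si-Control group, then 7.12, 7.30 and 6.89 in the si-EZH2 group, 6.89, 6.78 and 6.60 for EZH2 re-expression and 6.73, 6.87 and 6.68 for T350A. The si-EZH2 arrays lay above every other array, the lowest of them only just above the highest EZH2 re-expression array. ATF3 rose by 0.51 ± 0.12 in si-EZH2 against si-Control (1.42-fold, adjusted p = 0.0293). Relative to si-EZH2 it differed by -0.35 ± 0.12 with EZH2 (adjusted p = 0.120) and by -0.35 with T350A (adjusted p = 0.207), and the re-expression groups differed from each other by 0.0043 (95% interval -0.25 to 0.25). The call was lost without si-Control replicate 1, 2 or 3 or si-EZH2 replicate 1 or 2, with adjusted p between 0.0545 and 0.120, while the difference stayed between 0.41 and 0.61 over the 12 fits that left out an array. It was also lost with chip section as a covariate (adjusted p = 0.0504).

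ATF4 itself was at 13.50, 13.42 and 13.49 in the si-Control group, then 13.73, 13.46 and 13.56 in the si-EZH2 group, 13.53, 13.53 and 13.55 for EZH2 re-expression and 13.72, 13.53 and 13.70 for T350A. These differ from si-Control by 0.12 (95% interval -0.097 to 0.33), 0.071 (-0.14 to 0.28) and 0.18 (-0.028 to 0.40), and none was called. Its 2 dimmer probes were not called either. ATF4 is controlled largely through translation, so its mRNA does not report its activity.

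The ATF4 element was searched as the core TGATGNAA, in the same windows. It was found in 5 of 15 genes of the ATF4 arm (ASNS, ATF3, CEBPG, CHAC1 and SLC3A2), in HERPUD1 of the chaperone and ERAD arm, and in 4.46% of all genes. ATF3 (chr1:212565157-212565456, plus strand, the upstream of its windows) and SLC7A5 (chr16:87869458-87869757, minus strand) are printed as the called genes of the arm. Capitals mark the core in ATF3, which begins 191 bases before the start, and SLC7A5 had no match, which says only that these letters are absent from this window.
ATF3: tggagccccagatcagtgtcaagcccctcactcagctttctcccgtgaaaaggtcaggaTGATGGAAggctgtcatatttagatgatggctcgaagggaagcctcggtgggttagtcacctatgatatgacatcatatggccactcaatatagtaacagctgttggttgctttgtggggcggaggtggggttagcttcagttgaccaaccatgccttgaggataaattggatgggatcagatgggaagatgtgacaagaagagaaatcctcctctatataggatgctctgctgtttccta
SLC7A5: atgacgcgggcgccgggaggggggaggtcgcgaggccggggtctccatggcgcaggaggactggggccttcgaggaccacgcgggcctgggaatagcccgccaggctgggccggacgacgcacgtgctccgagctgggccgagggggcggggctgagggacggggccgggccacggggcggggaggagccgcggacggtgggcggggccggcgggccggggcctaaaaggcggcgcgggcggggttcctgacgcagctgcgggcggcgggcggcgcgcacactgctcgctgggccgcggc

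The partner chain of SLC7A5, SLC3A2 (CD98 heavy chain), was at 9.80, 9.97 and 9.88 in the si-Control group, then 10.13, 10.24 and 10.03 in the si-EZH2 group, 10.08, 10.11 and 9.90 for EZH2 re-expression and 10.08, 10.08 and 10.09 for T350A. It differed from si-Control by 0.25 in si-EZH2 (adjusted p = 0.224), 0.15 with EZH2 and 0.20 with T350A. Probe ILMN_1679041 of the gene gave 0.29, 0.54 (adjusted p = 0.0570) and 0.43 for the same groups. SLC7A11, the cystine transporter that also pairs with SLC3A2, was 0.36 ± 0.14 above si-Control in si-EZH2 without overlap (adjusted p = 0.219).

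CHAC1, an ATF4 target that degrades glutathione, was at 7.03, 7.31 and 7.12 in the si-Control group, then 7.41, 7.32 and 7.43 in the si-EZH2 group, 7.17, 6.78 and 6.98 for EZH2 re-expression and 7.22, 7.14 and 7.14 for T350A. EZH2 re-expression minus si-EZH2 was -0.41 ± 0.11 (adjusted p = 0.0679), and those groups did not overlap. DDIT4 (REDD1), an inhibitor of mTORC1, was at 10.82, 10.81 and 10.72 in the si-Control group, then 10.80, 10.74 and 10.63 in the si-EZH2 group, 11.04, 10.77 and 11.20 for EZH2 re-expression and 11.12, 11.16 and 10.93 for T350A. It was 0.35 ± 0.12 higher with T350A than in si-EZH2 without overlap (adjusted p = 0.204). DDIT3 (CHOP), the factor tied to cell death after ER stress, differed from si-Control by -0.092, 0.0057 and 0.023 in the 3 groups, with 95% intervals that stay between -0.31 and 0.24. PPP1R15A (GADD34), which guides the phosphatase of eIF2, differed by 0.19, 0.14 and 0.18, and the pseudokinase TRIB3 by 0.14, 0.033 and 0.19. CEBPG, a dimer partner of ATF4, differed by -0.24 for EZH2 re-expression minus si-EZH2 (adjusted p = 0.191).

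Among the biosynthetic enzymes, ASNS, which makes asparagine, was read by probes that disagree. On ILMN_2398107 it was at 9.68, 9.56 and 9.37 in the si-Control group, then 9.48, 9.69 and 9.95 in the si-EZH2 group, 8.87, 9.21 and 9.34 for EZH2 re-expression and 9.44, 9.47 and 9.57 for T350A. That probe fell by 0.57 ± 0.14 with EZH2 re-expression against si-EZH2 (adjusted p = 0.0417), and without 7 of the 12 arrays in turn the fall did not pass, with adjusted p up to 0.166. The call was also lost with no filter and with chip section as a covariate. The brighter, counted probe ILMN_1796417 differed by 0.072 in the same comparison (95% interval -0.16 to 0.31, adjusted p = 0.787). PSAT1 of serine synthesis differed by -0.25 for EZH2 re-expression minus si-Control without overlap (adjusted p = 0.133), while PHGDH, which starts that pathway, differed from si-Control by at most 0.041. The mitochondrial one-carbon enzymes SHMT2 and MTHFD2 differed from si-Control by 0.14 and -0.0062 in si-EZH2, and by -0.0025 and 0.21 with T350A. CTH, which makes cysteine, differed by at most 0.075 in any comparison on its counted probe, and by -0.36 for T350A minus si-EZH2 on ILMN_2305116 without overlap (adjusted p = 0.263). That last probe was dim, detected on 11 of the 12 arrays at levels between 4.85 and 5.72.

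**Figure D3:**
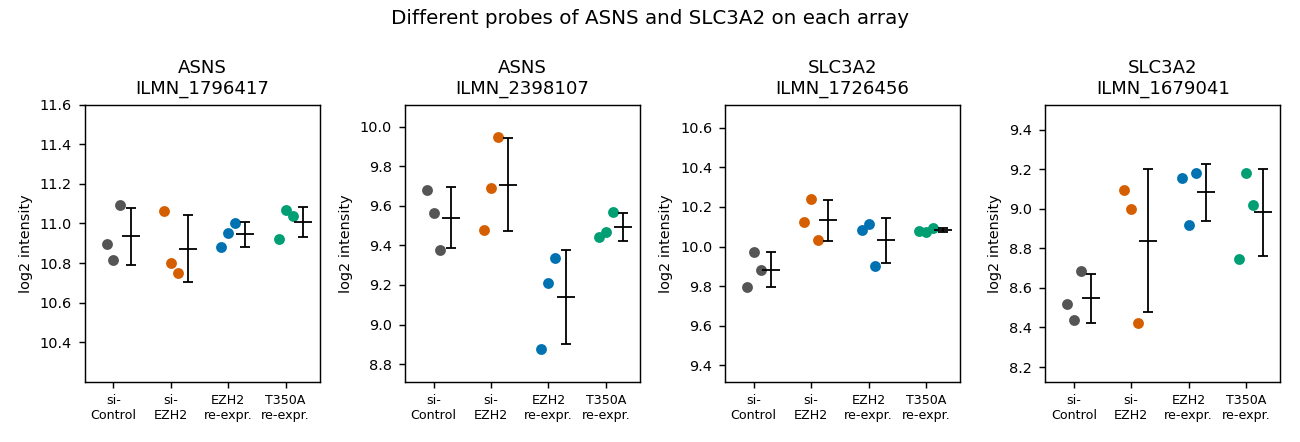
Log2 intensity (y axis) of different probes of ASNS and SLC3A2 on each array, by group (x axis), with 1 point per array and the mean ± SD of 3 arrays in black, every panel spanning the same range. The EZH2 re-expression arrays are the lowest group on ASNS probe ILMN_2398107 and not on ILMN_1796417.

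Set side by side, both arms had small positive medians against si-Control. Of the siRNA groups, T350A was lowest in the chaperone and ERAD arm and EZH2 re-expression in the ATF4 arm, by median and by mean. In the ATF4 arm si-EZH2 and T350A changed places between median and mean, with means of 0.15 and 0.14. In si-EZH2 the median difference from si-Control was 0.10 over 16 chaperone and ERAD genes, 0.14 over 17 ATF4-arm genes and -0.0015 over all genes, and 12 members of each arm lay above 0 (49.7% of all genes). With EZH2 re-expression the medians were 0.16 and 0.028, with 13 of 16 and 11 of 17 above 0, and the ATF4-arm median was -0.077 under median scaling. With T350A they were 0.066 and 0.16, with 10 of 16 and 14 of 17 above 0, and the chaperone median was -0.0099 under median scaling. All-gene medians with EZH2 and T350A were 0.0002 and -0.0025 in the main fit, and -0.0796 and -0.0613 under median scaling. Relative to all genes under median scaling, the ATF4-arm median with EZH2 was 0.0022 and the chaperone median with T350A was 0.0514. The SE of a single member's difference was typically 0.11, and no test is given for a median over members.

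The mean over each arm was also taken on every array, relative to si-Control. For the chaperone and ERAD arm it lay between -0.021 and 0.026 on the si-Control arrays, 0.095 and 0.16 in si-EZH2, 0.12 and 0.16 with EZH2 and 0.050 and 0.14 with T350A. All siRNA arrays stood above si-Control, and the siRNA groups overlapped one another. Under median scaling all 3 siRNA groups overlapped si-Control, which ran from -0.036 to 0.049, and the means of EZH2 and T350A were 0.045 and 0.030 in place of 0.14 and 0.093. For the ATF4 arm the ranges were -0.037 to 0.042, 0.13 to 0.17, 0.061 to 0.081 and 0.11 to 0.16 in the same order. EZH2 re-expression was below si-EZH2 and T350A on every array, and this held under each of the 5 scalings run, although under median scaling its arrays, at -0.057 to 0.011, overlapped si-Control. The ATF4-arm means include SLC7A5, which stood 0.73 above si-Control with EZH2 re-expression, where the mean over the arm was 0.069 and the median 0.028. In the main fit the mean over all genes stayed within 0.0081 of 0 on every array. Median scaling moved it to -0.036 for the si-EZH2 arrays, -0.079 for EZH2 re-expression and -0.062 for T350A. The lowest array, of EZH2 re-expression, then stood at -0.0999. The lower arm means under median scaling thus came with lower means over all genes, and overlap with si-Control relative to all genes was not tested.

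**Figure D4:**
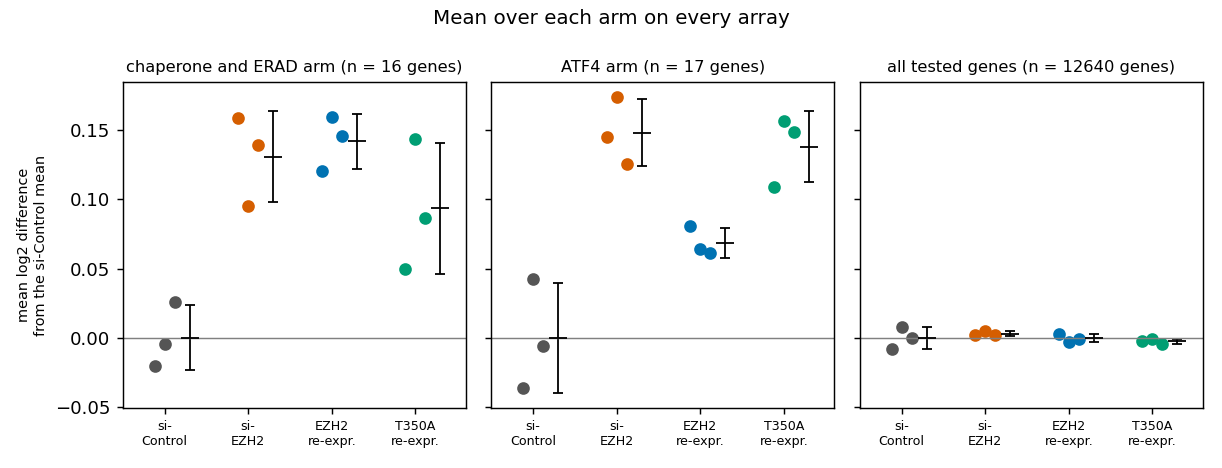
Mean log2 difference from the si-Control mean (y axis) over the genes of the chaperone and ERAD arm, of the ATF4 arm and over all tested genes on each array, by group (x axis), with 1 point per array and the mean ± SD of 3 arrays in black. In the ATF4 arm the EZH2 re-expression arrays, at 0.061 to 0.081, lie below those of si-EZH2 and T350A.

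Among the siRNA groups the medians were 0.034 for the chaperone and ERAD arm and -0.063 for the ATF4 arm in EZH2 re-expression minus si-EZH2, and the first was -0.028 under median scaling. The all-gene median of that comparison was -0.0462 under median scaling and -0.0059 in the main fit. In T350A minus si-EZH2 the arm medians were -0.068 and -0.015, and the second was 0.017 with the authors' values. In T350A minus EZH2 re-expression 4 of 16 chaperone and ERAD genes and 15 of 17 ATF4-arm genes lay above 0 (49.5% of all genes), with medians of -0.059 and 0.063. Under median scaling these were -0.0094 and 0.10, beside an all-gene median of 0.0204. With each array left out the arm medians ran from -0.085 to -0.010 and from 0.052 to 0.093. Single differences there ran from -0.32 (SDF2L1) to 0.21 (SEL1L) in the first arm and from -0.082 (SLC7A5) to 0.19 (CHAC1) in the second, and none was called. By group mean, 7 of 16 chaperone and ERAD genes were highest with EZH2 re-expression, 6 in si-EZH2 and 1 with T350A, whereas of the ATF4 arm 8 of 17 were highest in si-EZH2, 7 with T350A and 1 with EZH2. Over all genes the shares highest in si-EZH2, EZH2 and T350A re-expression were 25.3%, 26.1% and 18.9%.

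Other genes of the same pathways were listed by function. Of 35 further genes of ER folding, export and ERAD, SEC11C, a subunit of the signal peptidase, had the smallest F-test p. It was at 9.05, 8.93 and 8.88 in the si-Control group, then 9.39, 9.49 and 9.66 in the si-EZH2 group, 9.46, 9.53 and 9.59 for EZH2 re-expression and 9.32, 9.34 and 9.38 for T350A. It rose by 0.56 ± 0.10 in si-EZH2 (adjusted p = 0.00521), by 0.57 with EZH2 (adjusted p = 0.00358) and by 0.40 with T350A (adjusted p = 0.0397), all against si-Control. The T350A call was lost in 9 of 12 fits that left out an array and under median scaling, the replicate block and chip section, and the EZH2 call with chip section (adjusted p = 0.0789). WFS1, an ER membrane protein mutated in Wolfram syndrome, rose with EZH2 re-expression, by 0.47 against si-Control (adjusted p = 0.0204) and by 0.51 ± 0.11 against si-EZH2 (adjusted p = 0.0251), and these calls were lost in 3 and 4 of those 12 fits. The WFS1 call against si-Control was also lost with chip section as a covariate. SEC61B, of the translocation channel, fell by 0.39 with EZH2 re-expression against si-EZH2 (adjusted p = 0.0492), and 11 of the 12 fits lost it, as did median scaling, the replicate block and chip section. Relative to si-Control, the 35 genes gave 1 higher and 0 lower call for si-EZH2, 2 and 2 for EZH2 re-expression, and 1 and 0 for T350A. These are 2.86%, 11.4% and 2.86% of the list, near the 3.45%, 8.8% and 4.21% of all genes called in either direction.

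Of 20 further ATF4 or amino acid response genes, SLC1A4, a transporter of alanine, serine and cysteine, fell by 0.52 ± 0.10 with EZH2 re-expression against si-EZH2 (adjusted p = 0.0130). Its EZH2 re-expression arrays, at 5.94, 6.02 and 5.99, lay below the other 9, which ran from 6.22 to 6.64, and the call was lost without si-EZH2 replicate 1 or EZH2 re-expression replicate 1. STC2, a secreted glycoprotein induced by ATF4, rose by 0.42 with EZH2 (adjusted p = 0.0459) and by 0.46 with T350A (adjusted p = 0.0471) against si-Control, and JDP2, a repressor of the AP-1 family, fell by 0.47 in si-EZH2 (adjusted p = 0.0461) and by 0.45 with T350A (adjusted p = 0.0496). Each of these lost its call in at least 9 of 12 fits that left out an array. With chip section as a covariate both STC2 calls and the JDP2 call in si-EZH2 were lost. Relative to si-Control, the 20 genes gave 0 higher and 1 lower call for si-EZH2. They gave 1 and 0 for EZH2 re-expression, and 1 and 1 for T350A. These are 5%, 5% and 10% of the list, beside 3.45%, 8.8% and 4.21% of all genes. For EZH2 re-expression minus si-EZH2 the share called was 5%, beside 3.67%. None of 11 aminoacyl-tRNA synthetases, many of them ATF4 targets, and none of 5 eIF2 kinase and phosphatase genes was called in any comparison by limma. The share of all genes called ran from 0% to 8.8% over the 6 comparisons, and both lists are too small to set against it. In si-EZH2 minus si-Control 2 of each list had an unadjusted p under 0.05, or 18.2% and 40%, beside 17.7% of all genes. In T350A minus si-EZH2 it was 3 synthetases, or 27.3%, and 0 of the eIF2 list, beside 14.8%. In the other comparisons the synthetase share was 9.09% or 18.2%, beside 8.76% to 25.5% of all genes. In T350A minus EZH2 re-expression 14 of the 20 genes and 10 of the 11 synthetases lay above 0, with medians of 0.10 and 0.067, beside 16 of the 35 ER genes with a median of -0.014.

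**Figure D5:**
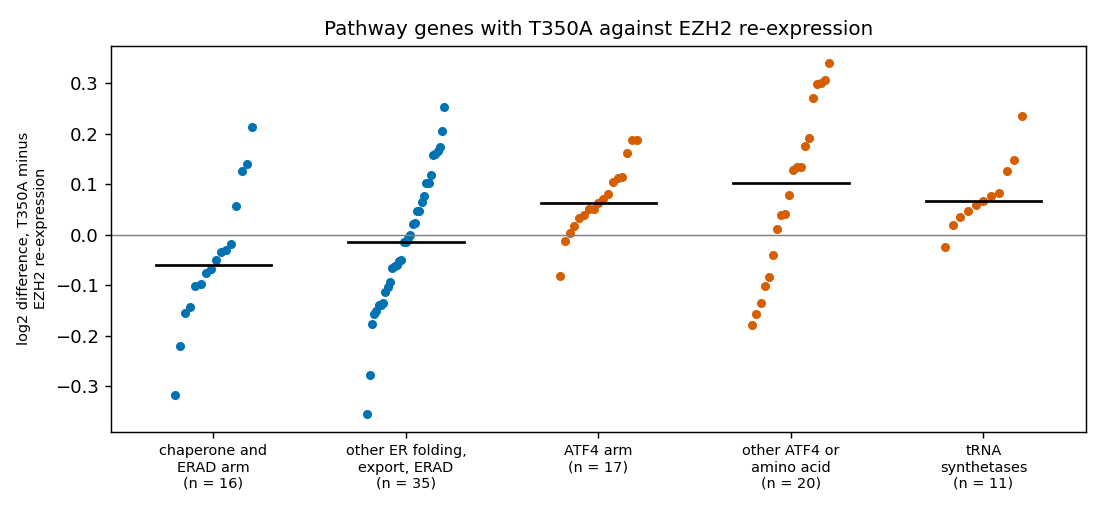
Log2 difference between T350A and EZH2 re-expression (y axis) of each measured gene of 5 lists (x axis), with 1 point per gene and the median as a black line. None of the genes was called, and 15 of 17 in the ATF4 arm and 10 of 11 synthetases lie above 0 beside 4 of 16 in the chaperone and ERAD arm.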

How the data were processed

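The deposited non-normalized table gave an intensity per probe and array on a linear scale and, per the file headers, a detection p-value beside it. The authors' normalized table, also linear intensity, ranked the probes of each array as the raw signal did (rank correlation 1), and its method is not given in the sources used here. Symbols came from the platform annotation, with 1 symbol for 30113 probes, several for 8 and none for 17110. Every column of values matched 1 sample.

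Intensities were background-corrected from the detection p-values, then quantile-normalized and log2-transformed with an offset of 16 (neqc, limma 3.58.1, R 4.3.3). A probe was tested if 3 or more of the 12 arrays gave it a detection p below 0.05. All 12 arrays entered 1 fit with a mean for each group (8 residual and 7.29 prior degrees of freedom), with limma's moderated F-test and 6 comparisons, 2-sided, adjusted by Benjamini-Hochberg over all tested probes. The fit was also run on simulated arrays with independent noise for each probe, which checks the code and not the results above. Array number limits the precision.

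The members and all lists were chosen with earlier results of these data known, so no p-value is given for a list. Values on every array are printed for called members, for those with the smallest F-test p up to 10, and for the 2 of each arm with the largest difference between group means. In the other lists up to 4 genes with the smallest F-test p, and called genes, are named. Samples with the same replicate number did not deviate together (correlations of -0.036 to 0.071, 0 of 18 pairs over 0.1), so the numbers were not used as pairs. The alternatives changed the processing (background correction left out, an offset of 50, median scaling, or the authors' values in place of neqc), the filter (none, or a stricter one of detection p below 0.01 on 12 of 12 arrays), the fit (limma-trend with robust moderation, chip section as a covariate, the replicate block), the probe (all probes of a gene) or the arrays (each left out in turn).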

Additional observations from a re-analysis of the deposited data

How the results depend on the processing

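Counts of called members depended on the background handling, the filter and the variance model. The F-test count of 3 became 9 with no background correction, an offset of 50 or limma-trend with robust moderation and 10 with the authors' values. The share of all genes called by the F-test was computed for the main fit only, so these counts have no background beside them. Against si-Control, the 3 of si-EZH2 became 6 with no background correction or the authors' values and 5 with an offset of 50, the strict filter or limma-trend. The 2 of EZH2 re-expression became 9, 7, 6, 6 and 7 in that order. The 2 of T350A became 5 with the authors' values and 1 with median scaling, no filter or chip section. Of all genes, 9.29%, 5.14%, 2.58% and 3.06% were called there, in that order. Relative to si-EZH2, the 0 of EZH2 re-expression became 4 with no background correction, the authors' values or limma-trend (CHAC1, DNAJB9, HSP90B1 and MANF), 3 with an offset of 50, 2 with the strict filter and 1 with all probes (ASNS). The 0 of T350A became 1 with no background correction and 2 with the authors' values. Of all genes, 8.69%, 8.73% and 7.77% were called for EZH2 re-expression minus si-EZH2 with no background correction, the authors' values and limma-trend. The offset of 50 gave 8.09%, the strict filter 9.32% and all probes 3.67%. For T350A minus si-EZH2 no background correction gave 2.86% and the authors' values 2.76%. The count of members for T350A minus EZH2 re-expression stayed at 0 under all, where at most 0.324% of all genes were called. The cause was not tested, and the 5 settings that raised the si-EZH2 and EZH2 counts against si-Control also raised the share of all genes called, to between 6.29% and 7.4% in si-EZH2 and between 13.9% and 17.1% in EZH2 re-expression against si-Control. With chip section as a covariate, 1.4% of all genes were called in EZH2 re-expression against si-Control, beside 8.8% in the main fit. That covariate gave 1.99% beside 3.45% in si-EZH2, and 3.06% beside 4.21% in T350A.

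Under median scaling the chaperone medians were 0.054 (si-EZH2), 0.065 (EZH2) and -0.0099 (T350A) against si-Control, -0.028 for EZH2 minus si-EZH2 and -0.0094 for T350A minus EZH2. The ATF4-arm medians were 0.096, -0.077 and 0.085 against si-Control, -0.10 and 0.10 for the latter pair. All-gene medians moved too, to -0.0397, -0.0796, -0.0613, -0.0462 and 0.0204 in that order. Relative to all genes the chaperone medians were 0.0941, 0.1442, 0.0514, 0.0178 and -0.0298, beside 0.1028, 0.1612, 0.0687, 0.0397 and -0.0574 in the main fit. Those of the ATF4 arm were 0.1355, 0.0022, 0.1463, -0.0574 and 0.0807, beside 0.1402, 0.0278, 0.1609, -0.0569 and 0.0647. Other shifts for the ATF4 arm were those of EZH2 minus si-EZH2, to -0.036 with the authors' values, -0.11 with chip section and -0.11 with all probes, of T350A minus si-EZH2, to 0.017 with the authors' values, and of EZH2 minus si-Control, to -6e-04 with chip section. T350A minus si-Control gave 0.10 with no background correction, 0.12 with an offset of 50, 0.10 with the authors' values and 0.12 with the strict filter, and for the chaperone arm 0.032 with all probes. Median scaling also lowered the share of all called genes that were higher, from 56.7% to 40.6% for si-EZH2, 49.1% to 23.6% for EZH2 and 50.2% to 26.3% for T350A against si-Control, and from 50.9% to 35.8% for EZH2 minus si-EZH2.

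With each array left out, the F-test count ran from 1 to 3 and the T350A count against si-Control from 1 to 2. Chaperone medians ran from 0.091 to 0.16 (si-EZH2), 0.12 to 0.17 (EZH2) and 0.038 to 0.10 (T350A) against si-Control, from -0.10 to 0.0014 for T350A minus si-EZH2 and from -0.085 to -0.010 for T350A minus EZH2. ATF4-arm medians ran from -0.11 to -0.043 for EZH2 minus si-EZH2, -0.052 to 0.034 for T350A minus si-EZH2, 0.052 to 0.093 for T350A minus EZH2, and -0.011 to 0.057 (EZH2) and 0.11 to 0.16 (T350A) against si-Control. No single gene named as called reversed its sign in any setting. With the replicate number as a block, the T350A count against si-Control fell from 2 to 1, as DNAJB9 did not pass (adjusted p = 0.0552), the F-test count was 4, and no other count of members changed. Of all genes, 3.83% were called in T350A against si-Control with that block. Signal over background limits the dimmest members: the SEL1L probe was detected on 11 of 12 arrays, and its level stayed between 4.95 and 5.86.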

Other observations

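Among the aminoacyl-tRNA synthetases, LARS1 and IARS1 charge the tRNAs for leucine and isoleucine, and neither was called. LARS1 was at 9.61, 9.82 and 9.50 in the si-Control group, then 9.67, 9.59 and 9.69 in the si-EZH2 group, 9.80, 9.98 and 9.98 for EZH2 re-expression and 9.92, 9.96 and 9.99 for T350A, and its difference of 0.31 ± 0.10 between T350A and si-EZH2 did not pass (limma adjusted p = 0.211). IARS1 was highest on the T350A arrays, at 11.10, 11.08 and 11.15, above all others, and T350A minus EZH2 re-expression was 0.24 (limma adjusted p = 0.495). UGGT1, which checks glycoprotein folding in the ER, fell by 0.42 with EZH2 re-expression against si-Control (limma adjusted p = 0.0479), and the ER stress factor CREB3L2 fell by 0.35 (adjusted p = 0.0354). Leaving out each array in turn, UGGT1 lost its call in 10 of 12 fits and CREB3L2 in 5. CREB3L2 also lost its call with chip section as a covariate, and UGGT1 with no filter.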
